A study of Mus musculus with 32 samples.

Results

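The 7 globin genes Hba-x, Hbb-y, Hbb-bh1, Hba-a1, Hba-a2, Hbb-bs and Hbb-bt were followed through mouse embryonic development in single-cell libraries of the dorsal telencephalon, the forebrain region that forms the cerebral cortex. They were chosen by symbol, as the genes that encode the embryonic and adult chains of haemoglobin, and are 7 of the 32285 genes counted in each library. Hba-x, Hbb-y and Hbb-bh1 are embryonic genes and the other 4 are adult genes.

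The study compared wild-type embryos (WT) with littermates heterozygous for Chd8 (Chd8+/-, het below), which encodes a chromatin remodelling protein, on the C57BL/6J background. Embryos were taken on embryonic days E12.5 and E14.5 and, later, on E16.0 and E17.5, and each of the 8 groups of stage and genotype held 4 libraries, 1 per embryo, from the males M1 and M2 and the females F1 and F2. Each WT library has a het partner matched for litter and sex, so that the 32 libraries make 16 pairs. The labels do not say which part of Chd8 is altered, and they name no sort of the dissociated cells. The medial part of the tissue was removed at dissection.

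Haemoglobin joins alpha-type to beta-type chains. In the mouse, a first wave of primitive red cells arises in the yolk sac, enters the circulation while still nucleated and carries mostly embryonic chains. Definitive red cells made in the fetal liver follow, carry adult chains, and lose their nucleus before release, and this replacement of one wave by the other, together with a change of genes inside primitive cells, is known as haemoglobin switching. In both clusters the embryonic genes lie before the adult genes in the direction of transcription.

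By GENCODE M21 (build GRCm38), the alpha cluster lies on chromosome 11 on the plus strand, with Hba-x (ENSMUSG00000055609) at chr11:32276400-32278116, Hba-a1 (ENSMUSG00000069919) at chr11:32283511-32284465 and Hba-a2 (ENSMUSG00000069917) at chr11:32296489-32297298. The beta cluster lies on chromosome 7 on the minus strand, with Hbb-y (ENSMUSG00000052187) at chr7:103851749-103853216, Hbb-bh1 (ENSMUSG00000052217) at chr7:103841637-103843164, Hbb-bs (ENSMUSG00000052305) at chr7:103826534-103828096 and Hbb-bt (ENSMUSG00000073940) at chr7:103812524-103813996. All 7 are protein-coding, and no other annotated gene overlaps them. Reads of 98 bases came from the 3′ ends. Of the 98-base windows in the last 400 bases of the transcript, 67.7% of those of Hba-a1 also occurred in Hba-a2, and 47.5% of those of Hbb-bs in Hbb-bt, so the split within each of these adult pairs is uncertain. No such window was shared between an embryonic gene and the adult genes of its cluster, or between Hbb-y and Hbb-bh1, so the embryonic to adult ratio does not rest on that split.

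The promoters of an embryonic and an adult member are shown because these genes moved in opposite directions in the data that follow. Each is the 130 bases before the RefSeq start site (GRCm38.p6; chr7:103853208-103853337 on the minus strand for Hbb-y and chr11:32296362-32296491 on the plus strand for Hba-a2), written 5′ to 3′ with matches to the searched motifs in capitals.
Hbb-y: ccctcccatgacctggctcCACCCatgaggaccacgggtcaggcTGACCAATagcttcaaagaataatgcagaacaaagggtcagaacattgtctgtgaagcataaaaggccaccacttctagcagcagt
Hba-a2: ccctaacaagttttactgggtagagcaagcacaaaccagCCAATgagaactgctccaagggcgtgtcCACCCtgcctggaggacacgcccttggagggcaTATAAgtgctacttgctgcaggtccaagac
Motifs were searched on both strands. CACCC, the core bound by Krüppel-like factors, stood in 6 of the 6 member promoters in the RefSeq table and in 33.7% of its 32851 promoters. CCAAT stood in 5 of 6, all but Hba-x (22.4% of all promoters), and TATAA in 5 of 6, all but Hbb-y (12.7%). TGACCA, the core bound by the switch regulator Bcl11a, stood in Hba-x and Hbb-y, both embryonic, and in none of the 4 adult promoters (6.07%). In Hbb-y it overlapped the CCAAT match. Hbb-bh1, the remaining embryonic gene, had no promoter in the RefSeq table and was not searched. The windows of Hba-a1 and Hba-a2 hold nearly the same sequence, so these counts are not of independent promoters. GATAA, the core bound by GATA factors, stood in Hba-x only (11.4%). These matches describe letters in a window and were not tested for binding.

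The libraries held 145082 barcodes and 1075297873 UMIs, counted molecules of RNA, with 14710694 to 66499864 UMIs per library. Chd8 was lower in het than in WT in 15 of 16 pairs, at 20.5 to 68.5 CPM (a gene's share of a library's UMIs, scaled to 1000000 UMIs) in het and 39.9 to 81.7 CPM in WT libraries. Since the altered part of the gene is not given, 3′ counts check the labels only in part. Cortical genes were detected in all 32 libraries, Neurod6 of excitatory neurons at 117 to 1512 CPM and Pax6 of radial glia at 112 to 317 CPM. Barcode sequences recurred: 12378 of 131914 distinct sequences were present in 2 or more libraries, and 336 globin-rich barcodes had a sequence that was also in another library, but 3 sequences were globin-rich in 2 or more.

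Globin RNA was concentrated in few barcodes. Of 16848239 globin UMIs, 16505540 lay in 2004 barcodes with at least 100 globin UMIs, called globin-rich here. The lowest 5 inside that limit had 102 to 129 globin UMIs and the highest 5 outside it 95 to 99, while 523 barcodes had at least 1000 but under 5000, 801 at least 5000 but under 10000, and 630 had 10000 or more. The share of barcodes that were globin-rich was lowest at E12.5, with a median over 8 libraries of 0.762% (0.114% to 1.17%), followed by 0.877% (0.504% to 1.14%) at E14.5, 1.47% (1.20% to 2.39%) at E16.0 and 2.47% (2.05% to 4.06%) at E17.5. Total globin was 7881 CPM (1821 to 14202) at E12.5, 10070 CPM (5413 to 17201) at E14.5, 16769 CPM (11605 to 27051) at E16.0 and 34376 CPM (26096 to 58239) at E17.5. In such sums over a library, fewer cells of a type and less RNA per cell cannot be told apart.

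The embryonic share of globin fell at each step of development. Over all barcodes of a library, Hba-x, Hbb-y and Hbb-bh1 together gave between 25.8% and 64.1% of globin UMIs at E12.5, with a median of 56.7%, and between 3.69% and 14.3% at E14.5, with a median of 9.04%. The share lay between 0.0311% and 1.97% at E16.0, with a median of 0.659%, and between 0.000270% and 0.134% at E17.5, with a median of 0.000688%. At E12.5, 7 libraries lay at 52.8% or above and het M1 stood apart at 25.8%. That library had 5 globin-rich barcodes, against 23 to 61 in the other 7.

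The log2 ratio of embryonic to adult UMIs, with 0.5 added to each, was 0.23 ± 0.74 at E12.5, -3.46 ± 0.79 at E14.5, -8.05 ± 2.32 at E16.0 and -15.5 ± 2.93 at E17.5 (SD, n = 8 libraries each). The change was -3.69 from E12.5 to E14.5 and -4.59 from E14.5 to E16.0, and no library of the later stage reached the lowest of the earlier stage in either step (adjusted p = 0.000525 for both, exact two-sided permutation of stage within genotype, n = 8 and 8; the smallest p the design allows is 0.000408 before adjustment over 9 tests). From E16.0 to E17.5 the change was -7.47 (adjusted p = 0.00122, exact permutation). Here the stages overlapped: E17.5 WT F2 at -9.54 lay above E16.0 WT F1 at -11.61 and E16.0 het M1 at -11.65. Among WT libraries alone this step was -6.82 with p = 0.0571 (exact permutation, n = 4 and 4), and among het libraries alone it was -8.13 with p = 0.0286, the smallest p that 4 against 4 allows. Successive steps share the libraries of the stage between them. These tests treat the 8 libraries of a stage as independent, although WT and het partners share a litter. With the mean of each pair as the unit, no pair of a later stage reached the lowest of the earlier stage in any of the 3 steps (adjusted p = 0.0286 for each, exact permutation, n = 4 and 4 pairs, the smallest p that this design allows).

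**Figure D1:**
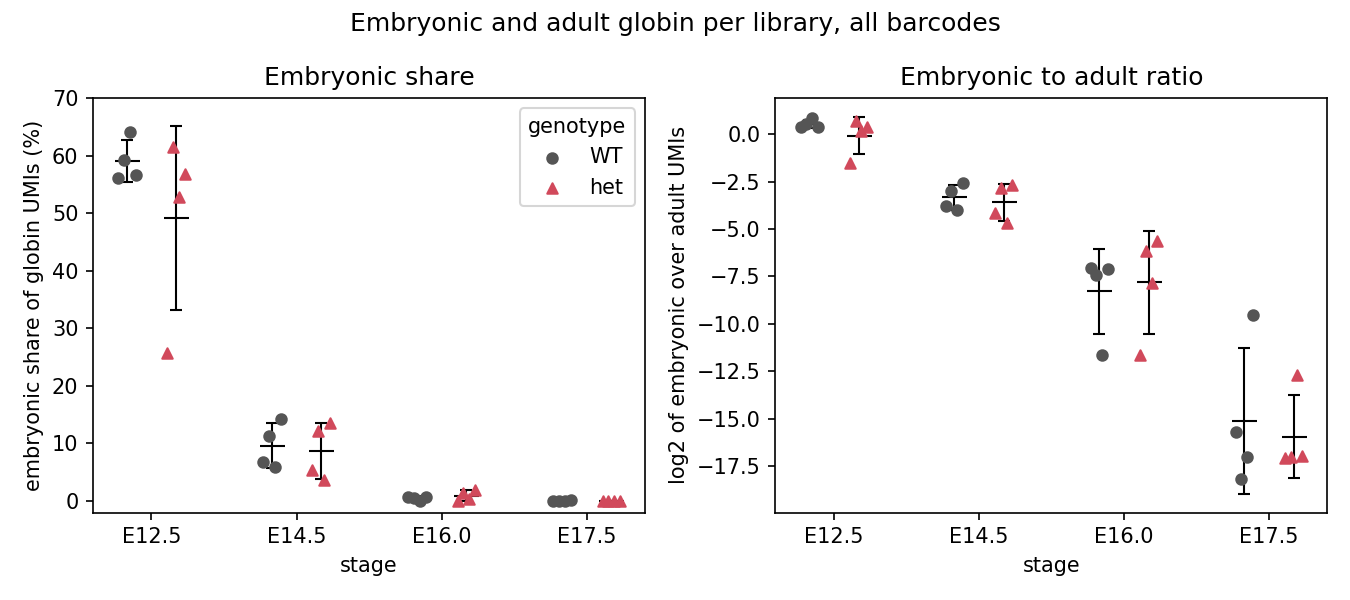
Embryonic share of globin UMIs in percent (left) and log2 ratio of embryonic to adult globin UMIs (right) by stage, over all barcodes. Each point is a library (circles WT, triangles het), black marks give the mean and SD of 4 libraries; the median share falls from 56.7% at E12.5 to 9.04%, 0.659% and 0.000688%, and E17.5 WT F2 (-9.54) is the highest of its stage.

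Hbb-y, the embryonic beta-type gene with the highest count, had 399 to 7341 CPM at E12.5, with a median of 3930 CPM. Its median was 787 CPM (402 to 1750) at E14.5, 95.1 CPM (1.35 to 221) at E16.0 and 0.0495 CPM (0 to 38.4) at E17.5. The ranges of E12.5 and E14.5 met only through het M1, the lowest at E12.5 with 399 CPM. In an edgeR quasi-likelihood fit of all 32 libraries, in which 68.4% of the 15997 genes tested were called between E12.5 and E14.5, Hbb-y fell by 2.33 on the log2 scale in that step (SE 0.82, adjusted p = 0.0137). It fell by 3.41 from E14.5 to E16.0 (SE 0.86, adjusted p = 0.00332 by edgeR, 35.1% of all genes called) and by 5.02 from E16.0 to E17.5 (SE 1.01, adjusted p = 0.000248 by edgeR, 41.6% called). The size of the last change depended on single libraries of E17.5: it was -8.36 without WT F2 and -7.55 without het F1. The first change did not pass in WT (-2.48, adjusted p = 0.0748 by edgeR) or het libraries alone (-2.18, 0.107), the second not in het alone (-2.93, 0.103) and the third not in WT alone (-2.98, 0.0952).

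Hba-x, the embryonic alpha-type (zeta) gene, had a median of 561 CPM (52.5 to 991) at E12.5, 43.4 CPM (23.5 to 184) at E14.5 and 16.8 CPM (0.0586 to 43.8) at E16.0. At E17.5 it was at 0 UMIs in 5 of 8 libraries and at 1, 145 and 156 UMIs in the others, WT F1, WT F2 and het F1. It fell in each step in edgeR, with log2 changes of -3.15 (SE 0.73, adjusted p = 0.000366), -2.02 (SE 0.71, adjusted p = 0.0277) and -3.19 (SE 0.85, adjusted p = 0.00371). The middle step lost its call without E14.5 WT M2 (-1.63, adjusted p = 0.0796), E14.5 het M2 (-1.61, 0.0851) or E16.0 het M1 (-1.85, 0.0573), and with DESeq2 (-2.01, 0.158). The last change was -6.56 without E17.5 WT F2 and -7.63 without E17.5 het F1, where 154 of the 156 Hba-x UMIs lay in 1 barcode. In WT libraries alone neither the middle (-2.52, adjusted p = 0.0933 by edgeR) nor the last step passed (-2.93, 0.0937), and in het libraries alone the middle step did not (-1.51, 0.315).

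Hbb-bh1, an embryonic beta-type gene used early in the primitive wave, had a median of 191 CPM (17.3 to 425) at E12.5 and 1.88 CPM (0.271 to 9.62) at E14.5. All 8 libraries of E14.5 lay below all 8 of E12.5. The log2 change of -6.44 (SE 0.61, adjusted p = 1.88e-10 in edgeR) was the largest of the 7 genes in that step. From E14.5 to E16.0 its difference was -1.16 (SE 0.63, adjusted p = 0.149 in edgeR; -2.01 and 0.0221 without E16.0 het F1), at a median of 0.644 CPM (0.137 to 3.96) in E16.0. From E16.0 to E17.5 it fell by 2.84 (SE 1.11, adjusted p = 0.0401 in edgeR), to 0 to 6 UMIs per library, and that call was lost without any 1 of the 8 libraries of E17.5 or without E16.0 WT M2, WT F1 or het F1 (adjusted p up to 0.168), and in WT or het libraries alone (0.218 and 0.175). Of the 137 Hbb-bh1 UMIs of E16.0 het F1, 124 lay in 1 adult-type barcode.

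The medians of the 4 adult genes were higher at each later stage. Hbb-bs, the adult beta-type gene with the higher median from E14.5 on, had a median of 387 CPM (260.2 to 838) at E12.5, 3714 CPM (1814 to 5737) at E14.5, 7165 CPM (5177 to 11933) at E16.0 and 13433 CPM (12359 to 24399) at E17.5. It rose in all 3 steps, by 2.95 (SE 0.24), 0.83 (SE 0.22) and 1.11 (SE 0.23) on the log2 scale, with adjusted p of 9.18e-12, 0.00541 and 0.000291 in edgeR. Only the first and the last step left no overlap between libraries, and the middle step did not pass in WT libraries alone (0.67, adjusted p = 0.149 by edgeR). Hbb-bt, its neighbour in the cluster, had a median of 412 CPM at E12.5, 1546 CPM at E14.5, 2539 CPM at E16.0 and 4265 CPM at E17.5. It rose by 1.63 (SE 0.26, adjusted p = 2.03e-06) from E12.5 to E14.5 and by 0.94 (SE 0.25, adjusted p = 0.00365) from E16.0 to E17.5 in edgeR, while its difference of 0.52 in the middle step did not pass (adjusted p = 0.105). The last rise did not pass in WT libraries alone (0.72, adjusted p = 0.163 by edgeR).

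The adult alpha genes were called in fewer steps than Hbb-bs. Hba-a1 had medians of 1604, 2496, 3876 and 9635 CPM at the successive stages, and Hba-a2 had 867, 1856, 2950 and 6936 CPM. From E12.5 to E14.5, Hba-a2 rose by 0.92 (SE 0.27, adjusted p = 0.00362 in edgeR), and the difference of Hba-a1 was 0.49 (SE 0.27, adjusted p = 0.110), which passed only without het M2 of E12.5 (0.73, adjusted p = 0.0170). In the middle step the differences were 0.42 for Hba-a1 and 0.46 for Hba-a2, and neither passed (adjusted p = 0.231 and 0.181 in edgeR). From E16.0 to E17.5, Hba-a1 rose by 1.45 (SE 0.28) and Hba-a2 by 1.38 (SE 0.27), with adjusted p of 0.000136 and 0.000197 in edgeR. Thus 6 of 7 members were called in the first step, 3 of 7 in the second and 7 of 7 in the third, against 68.4%, 35.1% and 41.6% of all genes. In WT libraries alone, 4 of 7 were called in the first step (53.4% of all genes), 1 of 7 in the second (13.3%) and 3 of 7 in the third (17.6%). In het libraries alone, 5, 1 and 6 of 7 were called (58.1%, 11.5% and 27.5% of all genes). Hba-a2 in the first step was called in het but not in WT libraries alone (adjusted p = 0.0272 and 0.0623 by edgeR), and the interaction of stage and genotype called none of the 7. With the libraries of each pair summed, so that a stage had 4 samples, edgeR called 6, 1 and 7 of 7 in the successive steps (59%, 18.2% and 27.4% of all genes). In the middle step Hba-x and Hbb-bs then missed the threshold (adjusted p = 0.0676 and 0.0583), and Hbb-y passed it (0.0284).

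**Figure D2:**
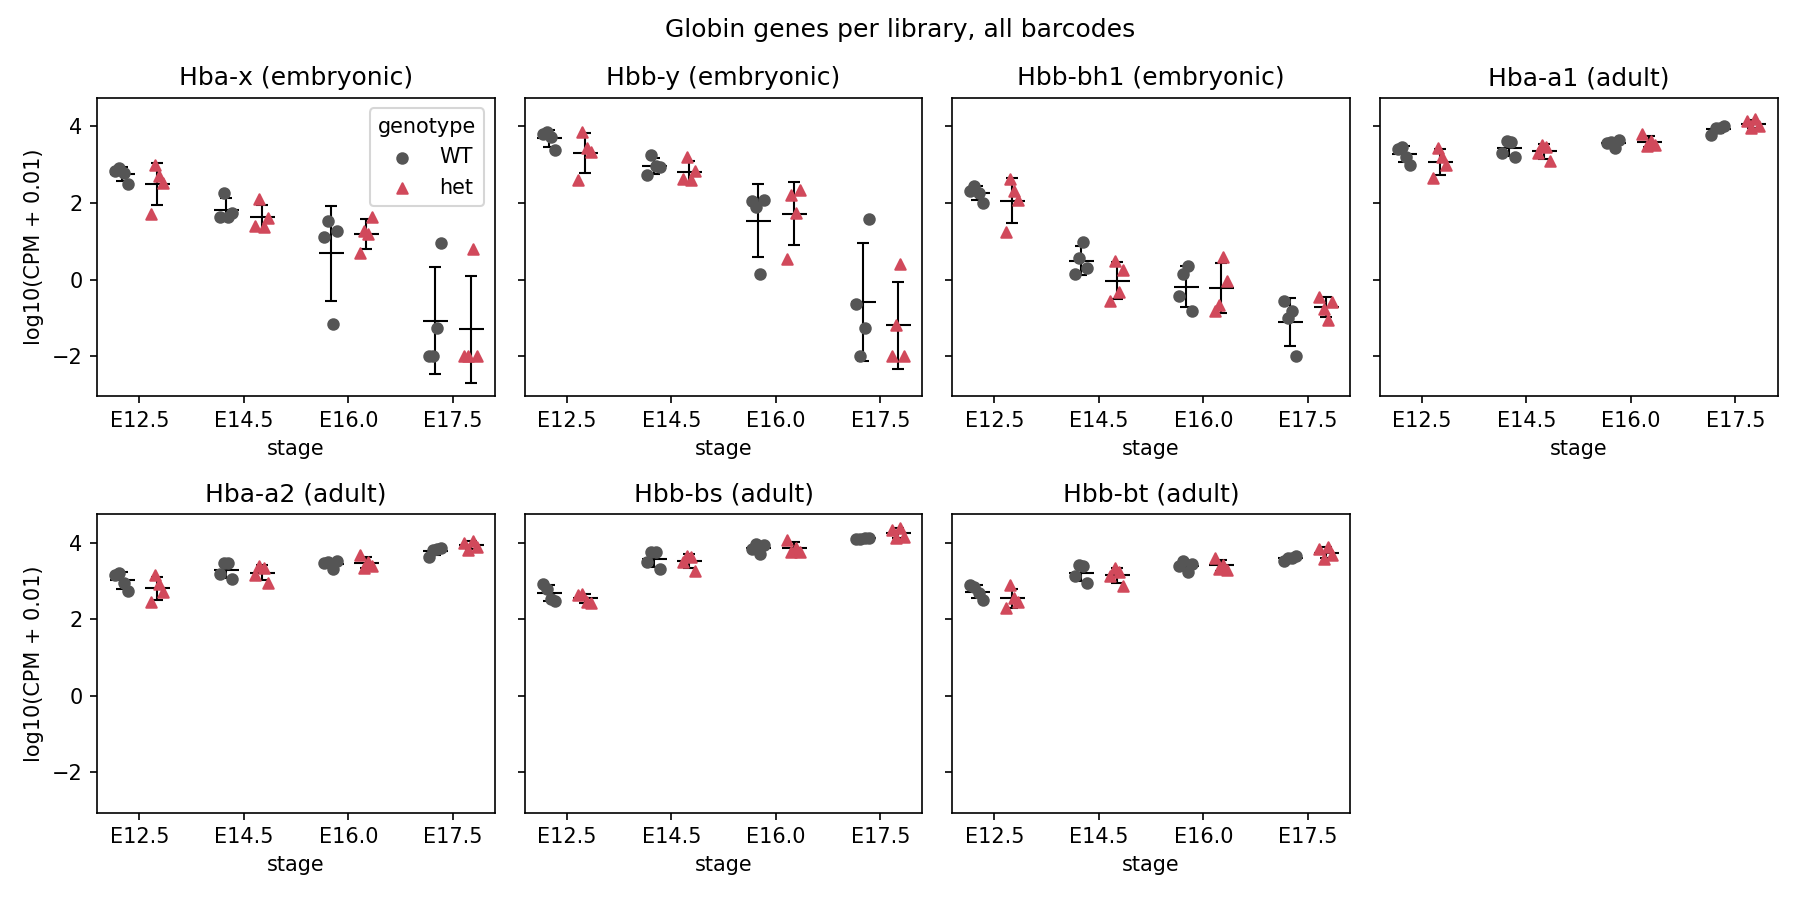
CPM of each globin gene on a log10 scale, with 0.01 added, by stage. Points are libraries (circles WT, triangles het) and black marks the mean and SD of 4 libraries on that scale; the 3 embryonic genes fall over the stages, to 0 UMIs of Hba-x in 5 of 8 libraries at E17.5, and the median of Hbb-bs rises from 387 to 13433 CPM.

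Single globin-rich barcodes held either embryonic and adult RNA or adult RNA almost alone. Of the 2004 barcodes, 350 had an embryonic share of at least 10% of their globin UMIs and are called embryonic-type, and 1654 had less and are called adult-type. The limit was set after the shares had been seen, and 2 barcodes had a share between 5% and 25%, so that its place within this range moves at most these. Embryonic-type barcodes were 279 of 301 at E12.5, 51 of 261 at E14.5, 18 of 668 at E16.0 and 2 of 774 at E17.5. Their share of globin-rich barcodes had medians over libraries of 91.9% (40.0% to 98.4%), 19.2% (8.33% to 30.3%), 2.86% (0% to 4.76%) and 0% (0% to 1.27%). The median embryonic share within these barcodes was 60.9% at E12.5, 58.6% at E14.5 and 61.9% at E16.0, while that of the adult-type barcodes was 0.0554% at E12.5 and 0% from E14.5 on. Across these stages the share of barcodes of embryonic type went from 91.9% to 2.86%, and the median mix inside them stayed within 58.6% and 61.9%. Single barcodes of this type ranged from 11.7% to 76.7% at E12.5 and from 28.7% to 96.4% at E16.0. As the type is cut by this share, a barcode that fell below 10% would count as adult-type. The median therefore cannot show whether the mix changed within cells.

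**Figure D3:**
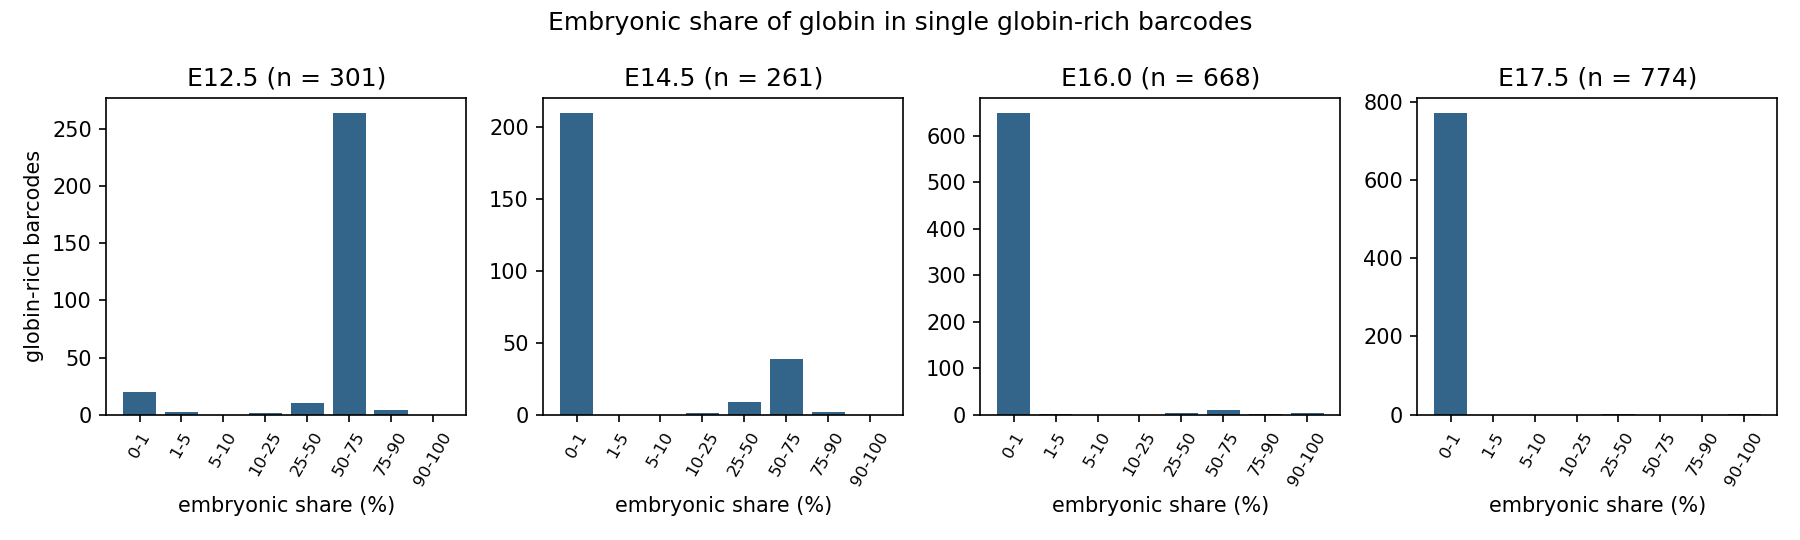
Number of globin-rich barcodes by the embryonic share of their globin UMIs, in bins of unequal width, 1 panel per stage with its own vertical scale. At E12.5, 264 of 301 barcodes lie between 50% and 75%, and at E14.5, E16.0 and E17.5 most lie below 1% (210 of 261, 649 of 668 and 772 of 774).

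At the later stages, libraries held few embryonic-type barcodes. At E16.0, the libraries had 0 to 4 embryonic-type barcodes. WT F1, with 0, had the second lowest ratio of the stage, and 78 of its 126 embryonic UMIs were Hbb-bh1. Of these 78, 70 lay in 1 adult-type barcode. The number of embryonic-type barcodes did not order the ratios, however: het M1, with the lowest ratio of the stage, had 2, and WT F2, at -7.09, had 1. At E17.5, only WT F2 and het F1 had an embryonic-type barcode, 1 each, and they had the highest ratios, -9.54 and -12.69, against -18.17 to -15.68 in the other 6. In those 6 libraries the embryonic genes together had 2 to 11 UMIs. The barcode of het F1 had 230 globin UMIs among 2613 UMIs and none of the 9 erythroid markers measured. It held 154 of the 156 Hba-x and 63 of the 65 Hbb-y UMIs of its library. The ratio of het F1 thus rests on 1 barcode without erythroid markers.

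Within embryonic-type barcodes, Hbb-y gave 52.2% of globin UMIs at E12.5, 55.1% at E14.5 and 51.2% at E16.0. The adult alpha genes were their main adult component: Hba-a1 gave 19.9%, 23.1% and 24.01%, and Hba-a2 10.7%, 12.3% and 11.7%. Hbb-bt and Hbb-bs were low there, with 5.01% and 3.14% in E12.5 barcodes, 2.89% and 2.18% in those of E14.5, then 1.85% and 1.69% in those of E16.0. Hbb-bh1 gave 2.30% at E12.5, 0.120% at E14.5 and 0.173% at E16.0. Hba-x gave 6.69%, 4.24% and 9.37% at the same stages. The order of the adult beta genes differed between the types: Hbb-bt was 61.5% of adult beta UMIs in embryonic-type barcodes at E12.5 and 31.6% in adult-type barcodes of the same stage. These types were cut by the embryonic share, so the values describe them and were not tested.

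Adult-type barcodes held mostly Hbb-bs and Hba-a1, with 39.1%, 39.8%, 44.0% and 40.7% Hbb-bs, and 23.7%, 24.3%, 23.0% and 27.1% Hba-a1, at the 4 stages. Hbb-bt was 18.1%, 17.3%, 15.5% and 12.7%. Their few embryonic UMIs were mostly Hbb-bh1 and not Hbb-y: 487 against 76 at E12.5, 128 against 30 at E14.5, 220 against 23 at E16.0 and 25 against 4 at E17.5. Up to E16.0 these lay in few barcodes. The 3 highest held 86.9%, 78.1% and 90.5% of the Hbb-bh1 UMIs of adult-type barcodes at these stages. The highest of all, at E12.5 in het F2, had 247 Hbb-bh1, 2 Hbb-y and 0 Hba-x UMIs beside 2765 Hbb-bs UMIs. At E17.5 no adult-type barcode had more than 1.

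**Figure D4:**
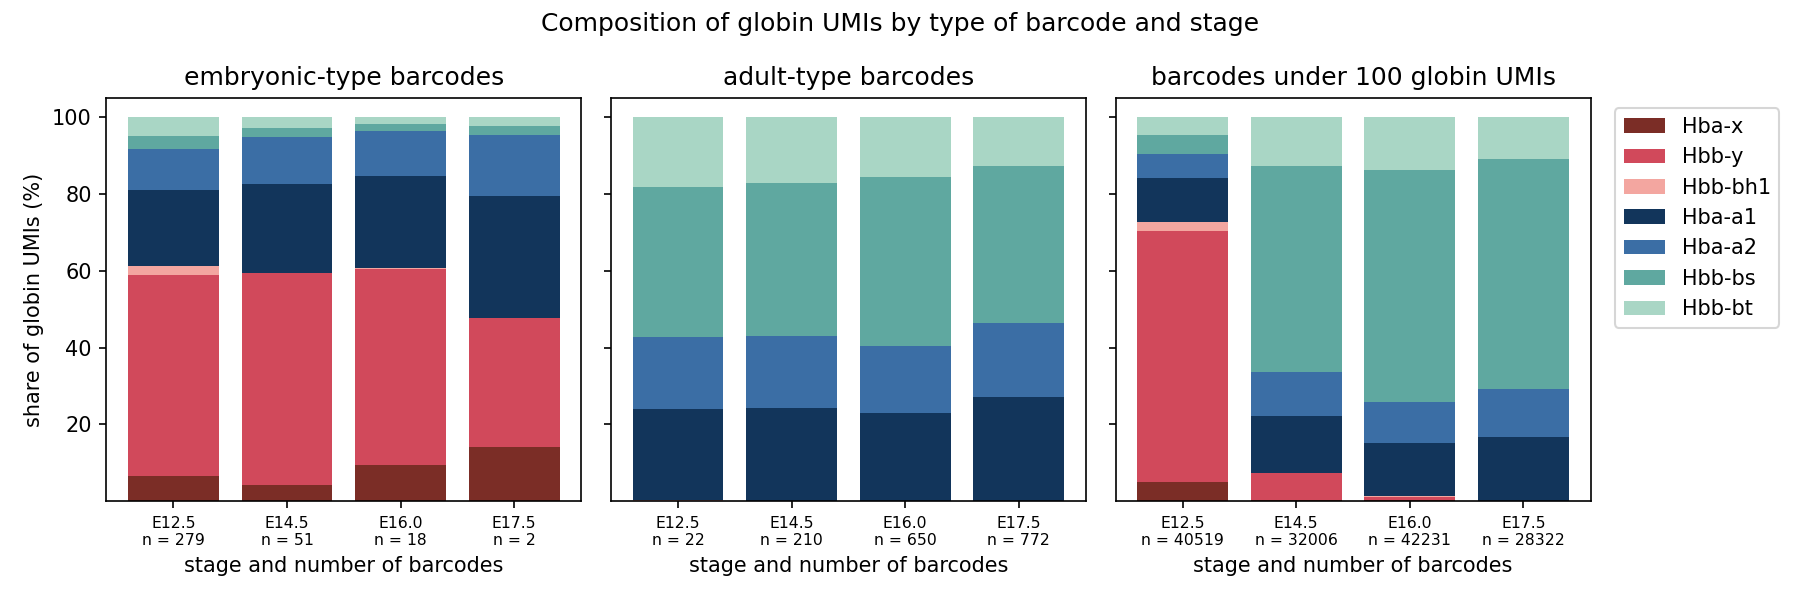
Share of each globin gene in the globin UMIs of embryonic-type barcodes, adult-type barcodes and barcodes under 100 globin UMIs, by stage, as stacked bars that sum to 100%, with the number of barcodes under each. Hbb-y gives 51.2% to 55.1% of embryonic-type globin up to E16.0 and Hbb-bs 39.1% to 44.0% of adult-type globin at all stages. Barcodes under 100 globin UMIs change from 65.4% Hbb-y at E12.5 to 53.5% Hbb-bs at E14.5. The bar of E17.5 for embryonic-type rests on 2 barcodes.

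Over all barcodes, the balance between paralogues also shifted with stage. These 12 tests were chosen after the values had been seen. Hbb-bh1 was 4.50% ± 1.34 of the embryonic beta UMIs (Hbb-y and Hbb-bh1) at E12.5 and 0.296% ± 0.315 at E14.5 (SD, n = 8; adjusted p = 0.00122, exact permutation), and all libraries at E12.5 lay above all at E14.5. At E16.0 it was between 0.113% and 62.9%, and the highest value was that of WT F1, which had 46 Hbb-y UMIs. The log2 difference of 2.77 from E14.5 did not pass (adjusted p = 0.0525, exact permutation). It passed without E16.0 WT F2 (3.42, adjusted p = 0.0147, exact permutation), among others. Hba-x was 11.8% ± 1.97 of the sum of Hba-x and Hbb-y at E12.5 and 6.42% ± 1.59 at E14.5 (SD, n = 8, adjusted p = 0.00122, exact permutation). Alpha-type genes gave 38.5% ± 3.66 of globin UMIs at E12.5 and 42.2% ± 1.56 at E14.5 (adjusted p = 0.0245, exact permutation). At E16.0 they gave 40.5% ± 2.00, which did not pass (0.0882), and at E17.5 46.5% ± 3.04 (0.00245, exact permutation). The first change was lost in barcodes that passed the quality filter (0.119) and without E12.5 het M2 or E14.5 het F1. In WT libraries alone the last was lost (0.137) and the middle passed (0.0429, exact permutation).

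Hbb-bt was 51.2% ± 9.33 of adult beta UMIs at E12.5, 30.2% ± 0.976 at E14.5, 25.9% ± 0.753 at E16.0 and 23.7% ± 1.38 at E17.5 (SD, n = 8). The successive log2 ratios of Hbb-bt to Hbb-bs fell by 1.28, 0.30 and 0.17 (adjusted p = 0.00196, 0.00122 and 0.00245, exact permutation; 0.0381 for each with pairs as units). The last of these was lost in barcodes that passed the quality filter (-0.0780, adjusted p = 0.294, exact permutation) and in WT libraries alone (-0.19, 0.0762). In het libraries alone the changes were -1.23, -0.29 and -0.16, and all 3 calls were lost (adjusted p = 0.0857, 0.0686 and 0.0857, exact permutation). Hba-a2 was 35.8% ± 1.65 of adult alpha UMIs at E12.5 and 42.3% ± 0.488 at E14.5 (SD, n = 8; adjusted p = 0.00122, exact permutation), and it lay between 41.0% and 43.8% in all libraries of the later stages. Within that range it rose to 43.1% ± 0.380 at E16.0 (adjusted p = 0.0109) and fell to 41.8% ± 0.680 at E17.5 (adjusted p = 0.00245, exact permutation, SD, n = 8). The rise was lost in filtered barcodes (adjusted p = 0.591), in WT libraries alone (0.156) and with pairs as units (0.0935, exact permutation). In het libraries alone no step of any of these shares passed: the changes from E12.5 to E14.5 in the Hbb-bh1, Hba-x and Hba-a2 shares were at adjusted p = 0.0686 each, and the later changes of Hba-a2 at 0.0857 and 0.137 (exact permutation, n = 4 and 4, where the smallest unadjusted p is 0.0286). Within each type of barcode, the adult shares differed less between E12.5 and E14.5. In summed UMIs, Hba-a2 was 34.9% and 34.7% in embryonic-type and 44.0% and 43.5% in adult-type barcodes. Hbb-bt was 61.5% and 57.0% in embryonic-type and 31.6% and 30.3% in adult-type barcodes, where it was 26.1% at E16.0 and 23.8% at E17.5. What part of the shifts lies in the mix of types was not tested. As the copies in each adult pair share 3′ sequence, the part that lies in the assignment of reads was not tested either.

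Alas2, an erythroid gene that the split into types did not use, was higher in adult-type barcodes at E14.5 and E16.0, while Slc4a1, another, did not pass between the types at any stage. UMIs were set against all non-globin UMIs of the same barcodes and are given as non-globin CPM. Alas2 encodes the erythroid enzyme that starts haem synthesis. It was at 2519 non-globin CPM (3561 UMIs; 95% exact Poisson interval 2437 to 2603) in embryonic-type barcodes at E12.5, 1179 (135 UMIs; 989 to 1396) at E14.5 and 0 at E16.0. The 0 at E16.0 was 0 of 77101 non-globin UMIs, which allows up to 38.9 non-globin CPM at 3 counts. In adult-type barcodes it was at 4333, 10643, 6603 and 8750 non-globin CPM at the 4 stages, and in barcodes under 100 globin UMIs at 0.236 to 0.977. These levels depended on barcodes with much other RNA: where only barcodes with at least 50% globin were kept, Alas2 was at 4130, 2475 and 0 non-globin CPM in embryonic-type barcodes up to E16.0, and at 14284, 16476, 25174 and 23174 in adult-type barcodes at the 4 stages. At E12.5 such barcodes were 18 of the 22 of the adult type, and held 23173 of their 90006 non-globin UMIs. Against 3 counts in embryonic-type barcodes, adult-type barcodes were thus 170-fold higher at E16.0, or 91.4-fold where only barcodes with at least 50% globin were kept. In that set the embryonic-type barcodes held 10892 non-globin UMIs, and the exact 95% interval of their 0 reaches 339 non-globin CPM. Such intervals and limits cover counting error only.

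Compared within libraries, Alas2 was higher in adult-type barcodes in 8 of 8 libraries at E14.5 (log2 difference 3.59 ± 2.51 SD, adjusted p = 0.0375 over 12 tests, exact sign-flip permutation). It was higher in 7 of 7 at E16.0 (adjusted p = 0.0375, exact permutation) and in 6 of 8 at E12.5, where the difference of 1.23 did not pass (adjusted p = 0.206, exact permutation). It passed there in barcodes with at least 50% globin (1.99) and without E12.5 WT F1 (1.89), with adjusted p = 0.0469 for each (exact permutation). Leaving out any 1 of these 7 libraries at E16.0 took Alas2 past 0.05 (adjusted p of 0.0536 to 0.0625, exact permutation), where 1 library fewer also raises the smallest p that the test can give. Each of the 7 libraries had only 1 to 4 embryonic-type barcodes at E16.0, all with 0 Alas2 UMIs. Among them, 1 barcode each in het M1, het M2 and het F1 had none of the 9 erythroid markers. The result without those 3 barcodes was not worked out. Slc4a1, the anion exchanger band 3, was higher in adult-type barcodes in 3 of 8, 6 of 8 and 5 of 7 libraries at the successive stages, and no difference passed (adjusted p = 0.247, 0.167 and 0.281, exact permutation). With at least 50% globin it passed at E16.0 (0.99, adjusted p = 0.0469, exact permutation). From E12.5 to E14.5, the change of Alas2 in embryonic-type barcodes was -1.85 and did not pass (adjusted p = 0.0767 over 8 tests, exact permutation), but passed with at least 50% globin (-1.40, adjusted p = 0.00816). In the same step Slc4a1 fell in embryonic-type barcodes (log2 change -3.20, adjusted p = 0.00163 over 8 tests, exact permutation). With pairs as units, 4 against 4, that change was at adjusted p = 0.114 and at the smallest unadjusted p the design allows, 0.0286 (exact permutation). Its change in adult-type barcodes was -0.39 and did not pass (adjusted p = 0.651, exact permutation). That the changes differ between the types was not tested.

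The other erythroid markers were sparse and are described only. Klf1, a factor that activates the adult beta genes, had 251 UMIs in embryonic-type barcodes at E12.5 (178 non-globin CPM) and 0 at E14.5, which allows up to 26.2 non-globin CPM at 3 counts. Gata1, the master factor of red cell development, had 70 and 0, Hemgn 433 and 1, Epb42 343 and 2, Rhag 286 and 0, and Ermap 264 and 0. The non-globin UMIs behind them also fell, from 1413612 to 114498. Whether the fall was particular to this type was not tested. In adult-type barcodes with at least 50% globin, Klf1 was at 173 non-globin CPM at E12.5 and 17.7 at E14.5, with 4 UMIs at each stage. There Hemgn was at 475 and 22.1, Epb42 at 475 and 97.2, Rhag at 302 and 48.6, Ermap at 86.3 and 39.8, and Gata1 at 0 and 17.7. The E12.5 values rest on 0 to 11 UMIs per gene in 18 barcodes. At that depth 3 counts are 129 non-globin CPM, which Ermap and Gata1 did not reach. With the same limit, Klf1 in embryonic-type barcodes was at 292 and 0 non-globin CPM. With that limit, 3 counts in embryonic-type barcodes at E14.5 would be 55.4 non-globin CPM, so the types cannot be told apart by Klf1 there. Malat1, a long RNA kept in the nucleus, was at 11788 non-globin CPM in embryonic-type barcodes at E12.5, 26490 at E14.5 and 21958 at E16.0. Adult-type barcodes held 8566, 7668 and 14757 non-globin CPM at the same stages. It was lower in adult-type barcodes in 7 of 8 libraries at E14.5 (log2 difference -1.86, adjusted p = 0.0375, exact permutation), and that call was lost without any 1 of 7 of the 8 libraries (adjusted p up to 0.0536). Doublets were not called: 25 of 279 embryonic-type barcodes at E12.5, 3 of 51 at E14.5 and 6 of 18 among those of E16.0 had less than 50% globin. Without such barcodes, Malat1 was at 16230, 46780 and 39295 non-globin CPM in embryonic-type and at 7725, 6031 and 14710 in adult-type barcodes at these stages. At E12.5 its difference of -1.16 passed (adjusted p = 0.0469, exact permutation), but not without them (-1.56, adjusted p = 0.113) and not without any 1 of 7 of the 8 libraries (adjusted p of 0.0536 to 0.0804).

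**Figure D5:**
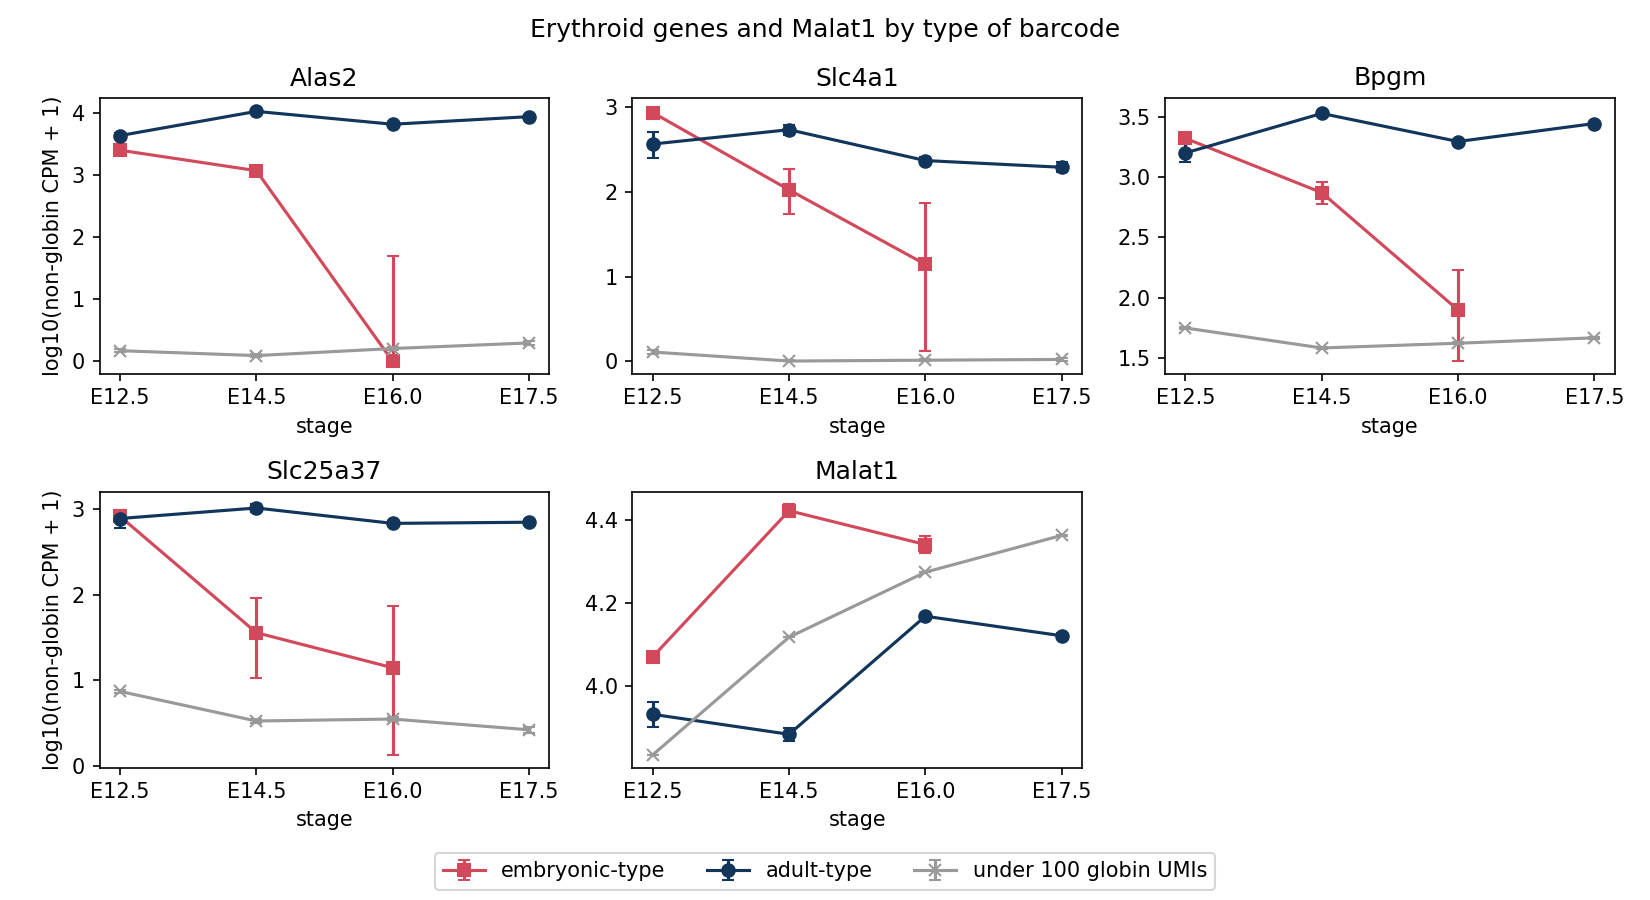
Non-globin CPM, on a log10 scale with 1 added, for Alas2, Slc4a1, Bpgm, Slc25a37 and Malat1 in embryonic-type barcodes (squares), adult-type barcodes (circles) and barcodes under 100 globin UMIs (crosses), by stage. Bars are 95% exact Poisson intervals on the summed UMIs, and the 2 embryonic-type barcodes of E17.5 are not drawn; Alas2 goes from 2519 to 1179 and 0 non-globin CPM in embryonic-type barcodes and lies between 4333 and 10643 in adult-type barcodes, or between 14284 and 25174 where barcodes under 50% globin are left out (not drawn).

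Globin RNA was also found at a low level in the remaining barcodes, and is called low-level globin here. It was at a median of 277 CPM (40.2 to 1168) at E12.5, 178 CPM (90.6 to 409) at E14.5, 158 CPM (109 to 211) at E16.0 and 371 CPM (234 to 724) at E17.5, and at least 1 globin UMI was in 23.3% to 100% of these barcodes in a library. At E14.5 it was 213 ± 120 CPM in radial glia, 211 ± 119 in intermediate progenitors and 216 ± 121 in excitatory neurons (SD, n = 8 libraries), classes gated by markers. Of 18 comparisons of a class with excitatory neurons, none passed (lowest adjusted p = 0.0703, shared by 6 of them, exact sign-flip permutation). At E16.0, however, radial glia (log2 difference -0.21 ± 0.08 SD) and intermediate progenitors (-0.16 ± 0.10 SD) lay below them in 8 of 8 libraries. The class of microglia and macrophages (-0.34 ± 0.27 SD) did so in 7 of 8. Radial glia and intermediate progenitors were there at an unadjusted p of 0.00781 (exact sign-flip permutation), the smallest that 8 libraries allow. Their missing call can thus not be read as an equal level.

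The low-level globin followed the switch. Its embryonic share was 69.2% (37.3% to 75.6%) at E12.5, 6.27% (3.92% to 13.7%) at E14.5, 0.910% (0.318% to 3.28%) at E16.0 and 0.0157% (0% to 0.165%) at E17.5, as median and range. At E12.5 it was more embryonic than the globin-rich barcodes of the same library in 8 of 8 libraries, with a log2 difference of rich minus rest of -0.84 ± 0.16 (SD, adjusted p = 0.0130, exact sign-flip permutation). At E14.5 the difference was 0.22 ± 0.29, higher in the rich barcodes in 6 of 8, and did not pass (adjusted p = 0.0977, exact permutation). It was -1.48 ± 2.33 at E16.0 (adjusted p = 0.141, exact permutation) and -3.49 ± 2.19 at E17.5 (adjusted p = 0.0130, exact permutation). At E17.5 the low-level globin held 0 to 18 embryonic UMIs per library, so that value depends on the 0.5 added: as a share the difference was -0.0205 percentage points (adjusted p = 0.0703, exact permutation). The mean over all stages, -1.39 (adjusted p = 0.000450, permutation), contains it.

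The mix of paralogues differed between low-level globin and globin-rich barcodes of the same library, in comparisons chosen after the values had been seen. Alpha-type genes gave 39.1% ± 3.58 of globin UMIs in rich barcodes and 24.004% ± 2.26 in the rest at E12.5. E14.5 libraries gave 42.5% ± 1.66 in rich barcodes and 26.4% ± 1.86 in the rest (SD, n = 8). E16.0 libraries gave 40.6% ± 1.99 against 25.3% ± 2.98, and E17.5 libraries 46.7% ± 3.09 against 28.6% ± 4.68. The alpha share was lower in the rest in 8 of 8 libraries at each stage, and the log2 difference of the alpha to beta ratio lay between 1.02 and 1.15 (adjusted p = 0.0104 at each stage over 12 tests, exact sign-flip permutation). Hbb-bt was likewise a smaller share of adult beta in the rest in 8 of 8 libraries at each stage, for example 19.5% ± 1.86 against 30.4% ± 0.964 at E14.5 (SD, n = 8; adjusted p = 0.0104, exact permutation). Hba-a2 was a larger share of adult alpha in the rest at E14.5, with 43.6% against 42.3% in rich barcodes (7 of 8 libraries, adjusted p = 0.0281, exact permutation, lost without any 1 of 6 of the 8 libraries), and at E17.5, with 42.8% against 41.8% (8 of 8, adjusted p = 0.0104, exact permutation). At E12.5 and E16.0 the difference did not pass (adjusted p = 0.153 and 0.898, exact permutation). The differences in the alpha and the Hbb-bt share held with the limit at 50 or 200 globin UMIs and with the rest limited to barcodes of at most 10.

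In 9 barcodes with at least 8 Hba-x UMIs, Hba-x exceeded Hbb-y, the reverse of the order in the library sums of E12.5 and E14.5. Of these, 7 were from E16.0, and all 9 had 0 Alas2 UMIs and none of the 9 erythroid markers measured. They were chosen after their values had been seen. The clearest, in E16.0 WT F2, had 63 Hba-x, 0 Hbb-y and 7 adult alpha UMIs among 34855 UMIs and 6520 genes. Of the 9, those with at least 100 globin UMIs are counted among the embryonic-type barcodes above. One of these, in E16.0 het M1, had 137 globin UMIs among 16172 UMIs and 7 of 7 endothelial markers. Among gated classes of barcodes under 100 globin UMIs at E16.0, the embryonic share was 33.6% in the 98 endothelial barcodes and 0% to 3.71% in the others. The endothelial value rested on 2 barcodes, 1 in WT F2 and 1 in WT F1, which held 106 of the 107 embryonic UMIs, and was 0.658% without them. Whether these barcodes hold more than 1 cell was not tested.

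Genotype was the study's own comparison. At E12.5 the log2 embryonic to adult ratio was 0.53 ± 0.22 among the 4 WT and -0.0744 ± 0.99 among the 4 het libraries (SD, n = 4 per group here and below). E14.5 gave -3.33 ± 0.66 in WT and -3.59 ± 0.98 in het, E16.0 gave -8.28 ± 2.23 in WT and -7.81 ± 2.72 in het, and E17.5 gave -15.1 ± 3.85 in WT and -15.9 ± 2.17 in het. None of the 4 differences nor their mean of -0.31 passed (adjusted p = 0.666 for all 5, exact permutation per stage and permutation for the mean). Het was higher in 8 of 16 pairs. Within pairs, the ratios lay close at E14.5, where the differences of M1, M2, F1 and F2 were -0.36, 0.12, -0.73 and -0.10, and far apart at E16.0, at -4.62, 1.26, 3.77 and 1.46. The size of change that these tests could detect was not worked out, and a small change may have been missed.

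None of the 7 genes was called between genotypes by edgeR at any stage, as the mean over stages or as a difference between stages (0% of all genes called), where 0.475% of all genes were called at E12.5, 0 at E14.5, E16.0 and E17.5, and 0.35% for the mean. At an unadjusted p below 0.05, 1 of 7 passed, Hbb-y at E17.5 (log2 difference -3.55, adjusted p = 0.914 by edgeR), and it rested on WT F2, without which the difference was 3.11. Among all 15997 genes, 2523, 283, 232 and 688 had an unadjusted p below 0.05 at the 4 stages. DESeq2 called none of the 7 either. No difference in the amount of globin between genotypes passed the test at any stage. It was 10277 ± 4091 CPM in WT and 6748 ± 5230 in het libraries at E12.5, lower in het in 4 of 4 pairs (SD, n = 4). At E14.5 it was 12078 ± 5270 CPM in WT and 9874 ± 3775 in het, lower in 4 of 4 pairs, and at E16.0 16633 ± 3653 and 17726 ± 6496, lower in 2 of 4. At E17.5 it was 31771 ± 4002 and 44677 ± 12263 CPM, higher in het in 4 of 4 pairs. None passed (adjusted p = 0.679, 0.679, 0.800 and 0.429 in stage order, exact permutation). A difference between stages was not tested, and within pairs the smallest p that 4 pairs allow is 0.125. At E12.5 the het libraries had 5, 61, 26 and 23 globin-rich barcodes, and their total depth ran from 20210276 to 64497571 UMIs.

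Genes of haem synthesis and of red cells were examined on the same sums, in which nearly all non-globin RNA came from other barcodes. At E12.5, barcodes under 100 globin UMIs held 386044099 non-globin UMIs, embryonic-type barcodes 1413612 and adult-type barcodes 90006. A change of a gene that other cells express can therefore not be placed in red cells. Of 12 genes of haem synthesis, 2 rose and 6 fell from E12.5 to E14.5, 2 rose and 2 fell in the next step, and 0 rose and 2 fell in the last, with medians of -0.14, -0.08 and -0.15 against -0.04, 0.00 and 0.06 over all genes. In those steps 32.5%, 16.9% and 22.2% of all genes rose and 35.8%, 18.2% and 19.4% fell. Alas2 rose from E14.5 to E16.0 by 1.19 (SE 0.30, adjusted p = 0.00369 in edgeR). Of 16 genes of the red cell membrane, 2 rose and 11 fell in the first step, with a median of -1.67. Slc4a1 fell by 1.94 (SE 0.41, adjusted p = 0.000139 in edgeR). In the second step 2 rose and 1 fell, and in the third 2 rose and 2 fell.

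Of 14 other erythroid genes tested, 3, 4 and 7 rose and 8, 2 and 1 fell in the successive steps. Of 19 tested erythroid factors and regulators of the switch, 2, 3 and 3 rose and 10, 2 and 4 fell. Bcl11a, a repressor of embryonic beta genes that cortical neurons also express, rose by 0.69 (SE 0.08) from E12.5 to E14.5 and by 0.37 (SE 0.08) from E16.0 to E17.5 (adjusted p = 7.18e-09 and 0.000405 in edgeR). Igf2bp1, an RNA-binding protein linked to fetal globin in human red cells, fell in all 3 steps, by 0.58, 0.46 and 0.49 (adjusted p up to 0.00222 in edgeR). The changes of Bcl11a and Igf2bp1 are those of the whole tissue, and whether they occur in red cells was not tested. Among further globins, Cygb, a globin of many tissues, rose by 2.06 and then fell by 0.91, and the alpha-like Hbq1b fell by 2.08 in the first step (adjusted p of at most 3.81e-05 in edgeR for these 3). No gene of these lists was called between genotypes at any stage or as the mean, by edgeR.

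The genes outside the family whose levels followed summed globin most closely, over 32 libraries after subtraction of stage means, were Alas2 (Pearson r = 0.94), Slc4a1 (0.88), Car2 (0.88), Epb42 (0.86), Fech (0.83) and Tent5c (0.83). The values describe libraries that share their depth and red cell content, and no test was made. The members are themselves part of summed globin, so their values cannot be ranked against those of outside genes. They were 0.99 for Hba-a1, 0.98 for Hba-a2, 0.96 for Hbb-bt and 0.72 for Hbb-bs. For the embryonic genes they were 0.63 for Hbb-bh1, 0.54 for Hba-x and 0.35 for Hbb-y.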

How the data were processed

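Single-cell 3′ RNA libraries (10x chemistry v2, read 2 of 98 cycles) were made from 32 embryos. The authors deposited 1 matrix of UMI counts per library, not normalized. STAR 2.7.9a, STARsolo, Cell Ranger and build mm10 are named by the submitters' processing notes, without their roles or filters. All deposited barcodes were used, and no doublet caller was run.

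Counts were summed per library over all barcodes, over barcodes with at least 100 globin UMIs and over the rest. Libraries held 14710694 to 66499864 UMIs. Ratios were tested by two-sided permutation of library labels (exact, or 100000 resamples for means) with Benjamini-Hochberg adjustment, and gene sums by the quasi-likelihood test of edgeR 4.0.16 (R 4.3.3) in 1 fit of 8 groups, with a call at an adjusted p below 0.05 over 15997 genes. The SE given with an edgeR change is its absolute size divided by the square root of its F statistic, and was not estimated by the fit itself. DESeq2 1.42.0 was an alternative. Python 3.11.15 with scipy 1.17.1 was used, and the tests were tested on simulated data first. Intervals are exact at 95%, and p-values measure the spread between these embryos. Tests over libraries take the partners of a pair as independent; changes between stages were also tested with pairs as units, an alternative chosen after seeing the data.

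Pairs come from the labels. In 16 of 16 pairs, deviations from the group means correlated above 0.1 (0.128 to 0.790). In 13 of 16, the own partner correlated best among the het libraries of the stage, but not in E12.5 M1, E16.0 M2 and E17.5 F1. Of the gene IDs, 99.6% matched GENCODE M21. The members and lists were chosen with earlier results of these data known. Named were the 7 members, up to 6 genes of each list by mean CPM, the 6 genes most like summed globin and the cell type markers. A gene that this rule names is not reported here. Alternatives left out each library, changed scaling, filters, pseudocounts and limits, blocked on pairs and took genotypes or chains alone. Filtered barcodes had at least 1000 UMIs, 500 genes and at most 10% mitochondrial UMIs.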

Additional observations from a re-analysis of the deposited data

Results flagged for a closer look

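In groups of 4 libraries, 40 in all, 3 values stood apart from the rest of their group by a gap test that chance passes in about 1 of 20 groups. The log2 embryonic to adult ratio was -11.6 in E16.0 WT F1, against -7.40, -7.09 and -7.03 in the other WT libraries of that stage. It was -12.7 in E17.5 het F1, against -17.07, -17.03 and -16.97. The embryonic UMIs of het F1 lay mostly in 1 barcode with none of the erythroid markers. Globin in barcodes under 100 globin UMIs was 1168 CPM in E12.5 het M2, against 40.2, 156 and 159 CPM.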

How the results depend on the processing

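The falls of the embryonic to adult ratio between stages kept their direction in each alternative run, and in the sums over all barcodes they kept their call except in WT alone. No longer past the threshold were E14.5 to E16.0 in globin-rich filtered barcodes (-4.01), the same step in other barcodes by alpha globins alone (-0.47), and E16.0 to E17.5 in WT libraries alone (-6.82 over all barcodes, -6.90 in globin-rich ones). Het minus WT, uncalled throughout, turned sign with filtered barcodes (0.63 at E14.5, -0.56 at E16.0, 0.34 at E17.5, 0.0194 as the mean) and with alpha globins alone (0.0762 as the mean). Without 1 library each it ran from -0.85 to -0.12 at E12.5, -0.57 to 0.10 at E14.5, -0.64 to 1.75 at E16.0, -1.92 to 1.02 at E17.5 and -0.59 to 0.15 as the mean. The pair block, a replicate block, gave p = 0.678 for the mean over 16 pairs (permutation) and changed no call; under it Hbb-bh1 at E12.5 was -0.32, with the sign turned. No paired analysis between stages was possible because the pairs are litters of 1 stage.

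Globin-rich minus other barcodes lost its call at E17.5 in percentage points (-0.0205), was 0.61 (called) at E14.5 by beta globins alone and -0.0266 by alpha globins alone, and was -3.15 (called) at E16.0 by alpha globins alone. The Hba-a2 share of adult alpha at E16.0 turned to -0.00105 with the limit at 50 and to -0.0193 with the rest at most 10 globin UMIs, and ran from -0.0224 to 0.0249 without 1 library.

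Of the 7 globin genes, 1 was called from E14.5 to E16.0 with summed pairs as units (18.2% of all genes), 1 in WT (13.3%) and 1 in het libraries alone (11.5%), and 3 from E16.0 to E17.5 in WT alone (17.6%). In barcodes under 100 globin UMIs 1 was called from E14.5 to E16.0. The share of all genes called was not worked out for that set, so this count cannot be read against it. In barcodes under 100 globin UMIs, the signs turned from E12.5 to E14.5 for Hba-a1 (-0.70) and Hba-a2 (-0.19), from E14.5 to E16.0 for Hba-a1 (-0.67), Hba-a2 (-0.72), Hbb-bs (-0.44) and Hbb-bt (-0.49), and for het minus WT at E16.0 for Hba-x (-0.17), Hbb-bh1 (-0.74) and Hbb-bt (-0.0537). The cause was not tested.

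Without 1 library each, differences that turned sign were all uncalled. For het minus WT as the mean they ran from -0.16 to 0.0318 for Hba-a1, -0.16 to 0.0261 for Hba-a2, -0.17 to 0.0101 for Hbb-bt, -0.13 to 0.00646 for Hbb-bs, -2.37 to 1.53 for Hba-x, -0.57 to 0.0465 for Hbb-bh1 and -2.29 to 0.63 for Hbb-y. At E16.0 they ran from -0.0730 to 0.27 for Hba-a1, -0.0599 to 0.29 for Hba-a2, -0.19 to 0.16 for Hbb-bt, -0.21 to 0.16 for Hbb-bs, -0.25 to 1.00 for Hba-x, -1.41 to 1.02 for Hbb-bh1 and -0.0137 to 0.95 for Hbb-y. Hba-x ran from -0.89 to 0.0830 at E12.5, -1.42 to 0.17 at E14.5 and -8.98 to 6.60 at E17.5, Hbb-y from -8.60 to 3.11 at E17.5, and Hbb-bh1 from -0.62 to 0.46 at E12.5. Log2 het minus WT of total globin at E16.0 ran from -0.17 to 0.18, of the share of globin-rich barcodes at E16.0 from -0.11 to 0.20, and of globin in the rest from -0.56 to 0.15 at E14.5 and -0.13 to 0.19 at E16.0. In adult-type barcodes from E12.5 to E14.5, Alas2 ran from -0.0549 to 0.94 and Slc4a1 from -0.77 to 0.0467. Depth limits the embryonic genes at E17.5, with 2 to 11 UMIs in 6 of 8 libraries.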
